A study of Mus musculus with 28 samples.

Results

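The 40 genes described here act in homologous recombination and in the Fanconi anaemia pathway, and they were matched by gene symbol, with Mre11a as the files spell it. All 40 were found among the 44674 genes of the bulk ovary table and all 40 among the 23623 genes kept in the single-cell matrices. Ovaries were measured 6 h after total-body exposure to 0.5 Gy (IR) or 0 Gy (nonIR) in wild-type C57BL/6J females and in Chek2-/- females, which lack the checkpoint kinase CHK2 (tm1b allele). The 4 bulk groups (wild-type nonIR, wild-type IR, Chek2-/- nonIR and Chek2-/- IR) held 6 libraries each, 1 library per female, from females 7 to 9 days old. The 4 single-cell libraries, 1 for each of these conditions, each pooled the ovaries of 4 females that were 7 days old. The females were otherwise untreated, and the sources used here do not say whether the Chek2-/- and wild-type females were littermates or shared 1 background.

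Homologous recombination copies the lost sequence of a double-strand break from an intact sister or homologous chromosome. Nucleases resect the broken end, the BRCA proteins and their partners ready the single strand for exchange, and helicases and nucleases then part the joined molecules. The Fanconi proteins open crosslinks between DNA strands and hand them to the same machinery. In the germ line these proteins also act on the programmed breaks of meiosis, and oocytes at this age are arrested after that step, while granulosa cells and stromal fibroblasts still divide.

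The bulk libraries held between 17825167 and 32605747 estimated counts. Chek2 itself was between 18.5 and 24.6 CPM (counts-per-million values, scaled by TMM) in the 12 wild-type libraries and between 2.88 and 4.53 CPM in the 12 Chek2-/- libraries, in accord with the labels. Both Chek2-/- libraries numbered 6 stood apart: the summed level of the 40 genes was 863 CPM in the nonIR one and 917 CPM in the IR one, against 1074 to 1125 and 1085 to 1122 CPM in the other libraries of those groups. The summed oocyte markers were low in the same libraries, at 2920 and 3398 CPM, as were the S-phase markers, at 1309 and 1345 CPM, and the G2/M markers, at 1491 and 1571 CPM. The summed oviduct epithelium markers were high there, at 34.9 CPM (8.35 to 15.1 CPM in the other libraries of the group) and 14.9 CPM (5.78 to 12.7 CPM). After filtering, the single-cell libraries held between 8697 and 9779 cells with a median of 13908 to 17135 UMIs (counted molecules) per cell, and any pair shared between 30 and 73 cell barcodes. The 40 genes were kept out of the genes used for clustering, and 16 of 19 clusters were placed in classes by marker lists, with limits set after the clusters had been seen. The oocyte-like cluster had 12 of 12 oocyte markers. With 1 library per condition the single-cell values carry no test, and their intervals cover counting error only.

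Promoter windows in the RefSeq table (build GRCm38.p6, 250 bases before to 50 bases after each start) were present for 31 of the 40 genes. Windows were searched on both strands for 4 motifs. CCAAT was in 17 of the 31 windows (54.8%, against 41.1% of the 27025 genes in the table and 37.4% of their 32851 windows) and TTTGAA in 4 (12.9%, against 20.2% and 17.9%). The E2F-type letters TTTCCCGC were in the windows of 4 genes (12.9%, against 1.24% and 1.07%), namely Bard1, Brca2, Fancg and Rad51c, and TTTGGCGC was in those of Dmc1 and Rmi1 (6.45%, against 0.585% and 0.514%). These are counts of letters, not of bound sites. Split by the 18 genes that were higher in dividing cells of both classes described in the results that follow, CCAAT was in 8 of 14 of their windows and 9 of 17 of the others, TTTGAA in 4 of 14 (Bard1, Eme1, Polq and Rad51b) and 0 of 17, TTTCCCGC in 2 of 14 and 2 of 17, and TTTGGCGC in 0 of 14 and 2 of 17. A stretch of 60 bases is printed 5′ to 3′ on the gene's strand for 3 of the genes with TTTCCCGC, to show the match in its setting, with the match in capitals (on the opposite strand in Brca2). They lie at chr1:71103148-71103207 on the minus strand for Bard1, chr5:150522427-150522486 on the plus strand for Brca2 and chr4:43010320-43010379 on the minus strand for Fancg.
Bard1: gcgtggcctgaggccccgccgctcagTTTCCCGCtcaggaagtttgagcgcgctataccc
Brca2: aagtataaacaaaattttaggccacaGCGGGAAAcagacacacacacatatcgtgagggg
Fancg: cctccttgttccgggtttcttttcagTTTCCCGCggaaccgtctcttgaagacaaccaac

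The single-cell libraries first gave the levels of the genes by class, with no correction for RNA that came from other cells. For scale, the summed oocyte markers were at 17977 to 23146 CPM in oocyte-like cells. They were at 41.5 to 118 CPM in non-dividing granulosa-like and 49.8 to 169 CPM in non-dividing fibroblast-like cells. The summed level of the 40 genes was highest in oocyte-like cells, at 1105 to 1240 CPM over the 4 libraries (583 cells), where CPM is the UMIs of a gene scaled to the total UMIs of the class. Dividing fibroblast-like cells (948 to 1009 CPM, 3320 cells) and dividing granulosa-like cells (948 to 999 CPM, 2718 cells) came next, and their ranges overlapped. The order of these 3 classes rested on Rad50: in the wild-type nonIR library it was at 263 CPM in oocyte-like and 128 CPM in dividing granulosa-like cells, and without it the sums, a setting chosen after seeing the data, were 842 to 944 CPM in oocyte-like, 830 to 869 CPM in dividing granulosa-like and 864 to 925 CPM in dividing fibroblast-like cells, which all overlapped. All other classes were at 530 CPM or below. Non-dividing granulosa-like cells were at 405 to 530 CPM and pericyte-like cells at 451 to 503 CPM, ranges that overlapped as well. Macrophage-like, epithelial-like and endothelial-like cells lay between 378 and 485 CPM, and perivascular-like cells between 352 and 380 CPM. Non-dividing fibroblast-like cells were at 330 to 350 CPM, and the 157 erythroid-like cells spread from 304 to 512 CPM.

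**Figure D1:**
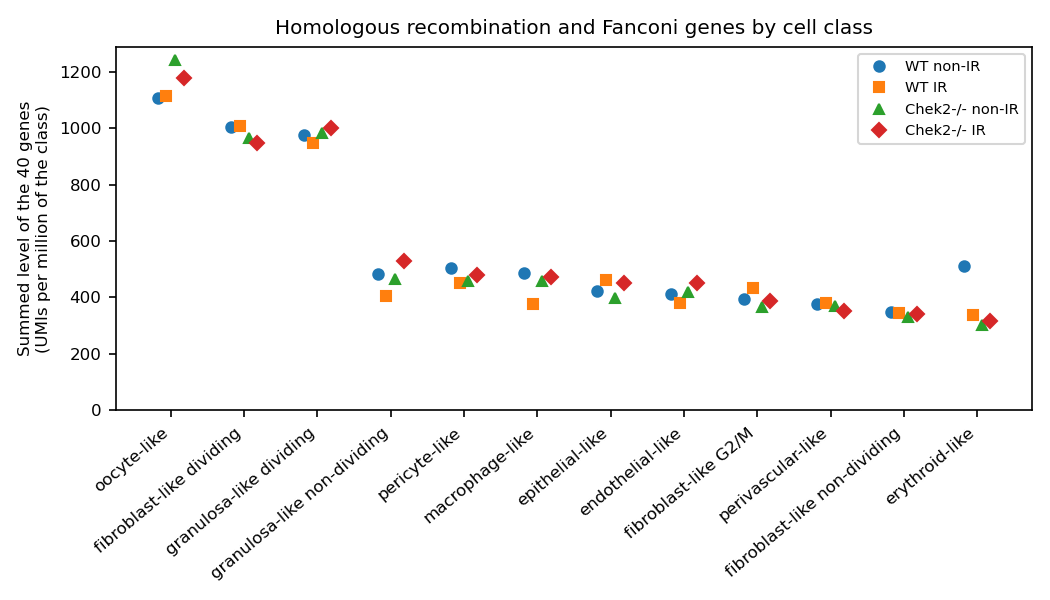
Summed level of the 40 genes (CPM, vertical axis) in each single-cell class, with 1 marker per library for the 4 conditions. The oocyte-like class and both dividing classes lie at 948 CPM or above in every library, and all other classes at 530 CPM or below.

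Dividing cells were compared with non-dividing cells of the same class, since much of this machinery acts on the replicated sister chromatid. A dividing cluster was one with most markers of both S phase and G2/M, so the marker lists, but not the 40 genes, set the classes, and "non-dividing" means only that a cluster did not meet both lists. The largest such granulosa-like cluster (5367 cells, 7 of 21 S-phase and 0 of 19 G2/M markers) had summed S-phase markers of 1312 to 1542 CPM, near the 1720 to 1824 CPM of the dividing cluster, so the granulosa-like comparison sets dividing cells partly against cells with S-phase transcripts. In granulosa-like cells 18 of the 40 genes were at least 2-fold higher in the dividing cluster in all 4 libraries, a pattern met by 3.20% of the 13623 genes compared, and 0 were at least 2-fold lower (2.33% of all genes). In fibroblast-like cells 24 were at least 2-fold higher (5.09% of the 13171 genes compared), including the same 18, and 0 were lower (1.72% of all genes). The counts moved with the clustering. At resolution 1 they were 23 in both classes (3.61% and 4.74% of all genes). Dna2, Fancg, Palb2, Rad51c and Xrcc3 were then also at least 2-fold higher in granulosa-like cells, and Xrcc3 was not in fibroblast-like cells. With doublets kept the counts were 20 and 24 (3.06% and 4.85%), and with a minimum of 2000 genes 21 and 25 (3.39% and 5.30%). The median ratio of the 40 genes was between 1.96 and 2.58 over the libraries in granulosa-like cells and between 3.0 and 3.23 in fibroblast-like cells, beside 0.946 to 0.969 and 0.937 to 0.949 over all genes. The single-cell values named below include the largest and smallest ratios, and others were added after their values were seen, with the range over the 4 libraries.

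**Figure D2:**
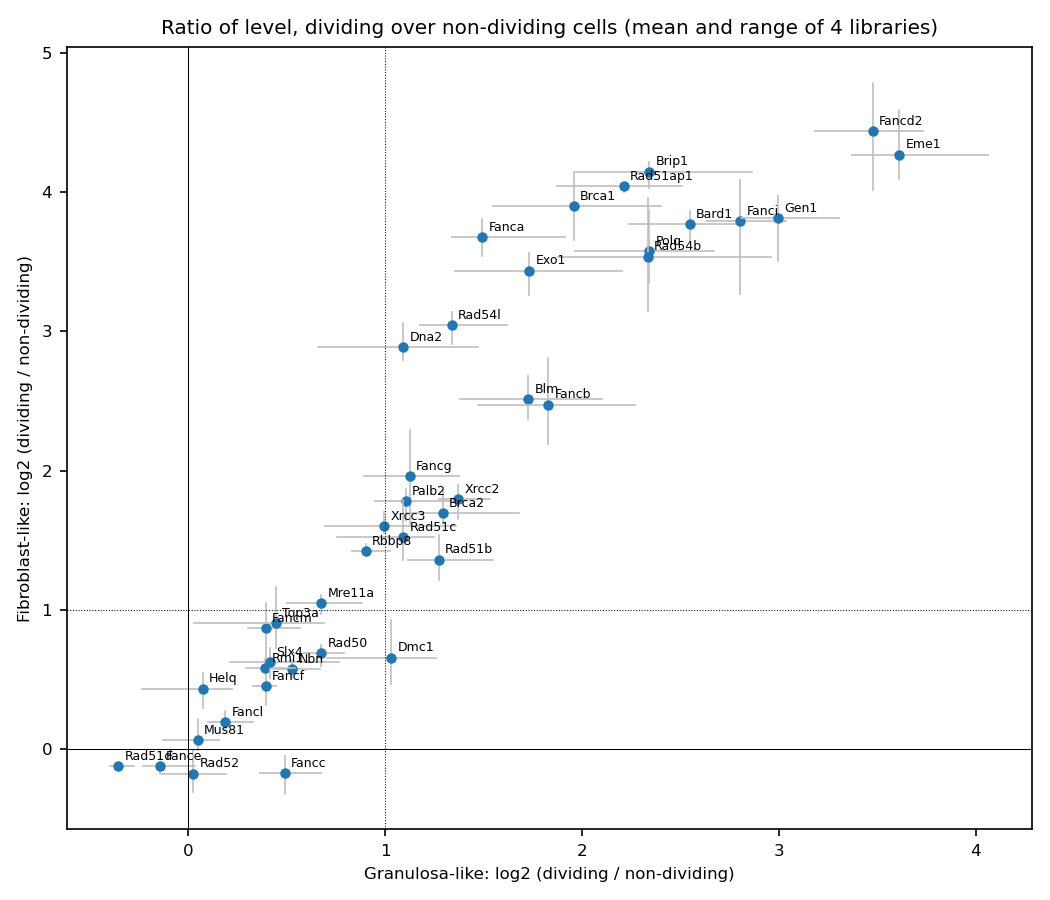
Each point is 1 of the 40 genes, with the log2 ratio of its CPM in dividing over non-dividing cells in granulosa-like (horizontal) and fibroblast-like cells (vertical), as the mean of the 4 libraries with lines over their range; dotted lines mark 2-fold. Fancd2, Eme1 and Gen1 lie far up in both classes, and Rad51d, Fance and Rad52 lie near 0 in both.

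The BRCA group was taken as Brca1, Bard1, Brca2, Palb2, Brip1 and Rbbp8, of which Rbbp8 acts earlier, in end resection. All 6 of its genes were at least 2-fold higher in all 4 libraries of dividing fibroblast-like cells, and 4 (Brca1, Bard1, Brca2 and Brip1) were so in granulosa-like cells. In wild-type nonIR fibroblast-like cells, Brip1, the helicase that binds BRCA1, was at 49.4 CPM in dividing and 2.66 CPM in non-dividing cells, and its ratio was 16.3 to 18.6 over the libraries. Brca1, the ubiquitin ligase that starts the choice of repair by recombination, was at 42.5 and 2.70 CPM, with ratios of 12.6 to 17.7. Its partner Bard1 had ratios of 12.6 to 14.5 in fibroblast-like and 4.73 to 6.99 in granulosa-like cells. Brca2, a large protein that acts after BRCA1 and PALB2, was at 73.6 CPM in dividing and 34.1 CPM in non-dividing granulosa-like cells of the wild-type nonIR library, with ratios of 2.15 to 3.21.

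Both genes of the Fanconi ID2 clamp, which the core complex ubiquitinates on damaged DNA, were among the largest ratios. In wild-type nonIR libraries Fancd2 was at 16.9 CPM in dividing and 0.766 CPM in non-dividing fibroblast-like cells, a ratio of 22.0 (95% counting limits 15.6 to 32.0), and at 20.4 and 2.01 CPM in granulosa-like cells. Over the 4 libraries its ratios were 16.2 to 27.6 and 9.08 to 13.3. Those of its partner Fanci were 9.64 to 17.0 in fibroblast-like and 6.19 to 8.20 in granulosa-like cells. Of the 8 core genes, which form or anchor the ubiquitin ligase, Fanca and Fancb were at least 2-fold higher in both classes and Fancg in fibroblast-like cells, where their ratios were 11.7 to 14.0 (Fanca), 4.58 to 7.02 (Fancb) and 3.07 to 4.89 (Fancg). Fance, the subunit that binds FANCD2, was near 1 in both, with ratios of 0.852 to 1.03 and 0.889 to 0.940. Fancc was at 11.9 CPM in dividing and 14.3 CPM in non-dividing wild-type nonIR fibroblast-like cells, with ratios of 0.801 to 0.964.

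Among the strand exchange genes, Rad51ap1, which stimulates strand invasion, was at 103 CPM in dividing and 6.24 CPM in non-dividing fibroblast-like cells of the wild-type nonIR library. Its ratios were 16.0 to 16.8 there and 3.66 to 5.69 in granulosa-like cells. The translocases Rad54l and Rad54b were also at least 2-fold higher in both classes. Rad52, which anneals single strands, was not: its ratios were 0.809 to 0.994 in fibroblast-like and 0.910 to 1.14 in granulosa-like cells. The paralogs Rad51b, Rad51c, Rad51d, Xrcc2 and Xrcc3, which act in small complexes in strand exchange, differed among themselves. Rad51b and Xrcc2 were at least 2-fold higher in both classes and Rad51c and Xrcc3 in fibroblast-like cells, whereas Rad51d had ratios of 0.761 to 0.828 in granulosa-like and 0.911 to 0.929 in fibroblast-like cells.

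Of the genes that resect ends, the exonuclease Exo1 was at least 2-fold higher in both classes. The nuclease-helicase Dna2 and Rbbp8, counted above with the BRCA group, were so in fibroblast-like cells. The 3 genes of the MRN complex that senses broken ends (Mre11a, Rad50 and Nbn) were in neither list. Of the genes that part joined molecules, the helicase Blm was at least 2-fold higher in both classes, and its partners Rmi1 and Top3a were not. The nuclease subunit Eme1 had among the largest ratios in granulosa-like cells, at 10.3 to 16.7, with 20.4 CPM in dividing and 1.98 CPM in non-dividing wild-type nonIR cells. Its ratios were 17.1 to 24.1 in fibroblast-like cells. Its catalytic partner Mus81 stayed near 1 in granulosa-like cells, at 0.914 to 1.12. Gen1, a resolvase of four-way junctions, had ratios of 7.01 to 9.90 in granulosa-like and 11.3 to 15.7 in fibroblast-like cells. Polq, the polymerase of end joining by short homology, had ratios of 3.91 to 6.38 and 10.2 to 14.6.

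A cluster of 640 fibroblast-like cells carried the G2/M markers (summed 4458 to 5898 CPM) without the S-phase markers (466 to 561 CPM, against 637 to 701 CPM in non-dividing cells). The summed level of the 40 genes in it was 365 to 433 CPM, close to that of non-dividing fibroblast-like cells, but single genes differed. Eme1 was at 7.27 to 9.48 CPM there and at 0.809 to 1.02 CPM in non-dividing cells, Fancd2 at 4.33 to 9.35 and 0.629 to 0.999 CPM, and Gen1 at 7.70 to 20 and 2.62 to 3.18 CPM. The ranges of these 3 genes did not overlap. Exo1 overlapped between them: it was at 2.89 to 7.45 CPM in the G2/M cluster, 3.91 to 4.65 CPM in non-dividing cells and 44.7 to 46.4 CPM in the cluster with both marker lists. Rad51ap1 was at 8.83 to 14.2 CPM in the G2/M cluster and at 93.1 to 107.5 CPM in the cluster with both lists. These genes were named after their values were seen.

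Oocytes do not divide, and their levels were set beside both states of granulosa-like cells. Against non-dividing granulosa-like cells 21 of the 40 genes were at least 2-fold higher in oocyte-like cells in all 4 libraries, but so were 24% of all 14452 genes compared, and 0 were at least 2-fold lower (20% of all genes). Against dividing granulosa-like cells 4 were higher (24.2% of the 13387 genes compared), namely Fancc, Helq, Mus81 and Rad51c, and 0 were lower (17.3% of all genes). The median ratio of the 40 genes was 2.15 to 3.04 against non-dividing and 0.897 to 1.06 against dividing granulosa-like cells. All genes compared had medians of 1.00 to 1.05 and 1.06 to 1.12. The oocyte-like class had 8 of 21 S-phase and 11 of 19 G2/M markers, short of the limit for either list, with sums of 1543 to 1912 CPM and 3275 to 3693 CPM.

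The Fanconi gene Fancc was among the highest in oocyte-like cells relative to both states. In the wild-type nonIR library it was at 39.6 CPM in oocyte-like, 6.47 CPM in non-dividing and 8.82 CPM in dividing granulosa-like cells. Over the libraries its ratios were 5.73 to 7.55 and 3.59 to 5.65. Rad51c, a subunit shared by the paralog complexes, was at 22.7, 3.19 and 7.06 CPM in the same order, with ratios of 6.52 to 9.28 and 3.22 to 3.98. Both genes were thus higher in oocyte-like cells than in either state of granulosa-like cells, in all 4 libraries. Mus81 was at 38.3 CPM in oocyte-like and 14.3 CPM in dividing granulosa-like cells (ratios 2.67 to 3.56), and the helicase Helq at 17.8 and 6.90 CPM (2.58 to 3.76). Rad50, the coiled-coil subunit of MRN, was at 263 CPM in oocyte-like and 80.4 CPM in non-dividing granulosa-like cells, with ratios of 2.88 to 4.02.

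Some genes with large dividing ratios also had large ratios of oocyte-like over non-dividing granulosa-like cells, and both ratios share that denominator. Fancd2 had ratios of 11.6 to 17.0 (25 against 2.01 CPM in wild-type nonIR cells), Fanci 6.48 to 13.5, Eme1 6.31 to 10.3 and Polq 3.56 to 6.37. Others did not: Brip1 had 1.92 to 3.21 and Rad51ap1 1.57 to 4.05. At the low end Fancl, the ligase subunit of the core, had ratios of 0.654 to 0.876, Fance of 0.885 to 1.26 and Rad51d of 0.916 to 1.22. Against dividing granulosa-like cells the lowest in the wild-type nonIR library were Rad51ap1 (0.413 to 0.712 over the libraries), Brip1 (0.441 to 0.500) and Dna2 (0.496 to 0.631), and Bard1 had 0.478 to 0.613. None of these was at or below 0.5 in all 4 libraries. The meiotic recombinase Dmc1 was at 7.05 CPM or below in these classes: it was at 2.02 to 4.47 CPM in oocyte-like cells, 0.572 to 1.37 CPM in granulosa-like cells and 3.71 to 7.05 CPM in fibroblast-like cells.

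**Figure D3:**
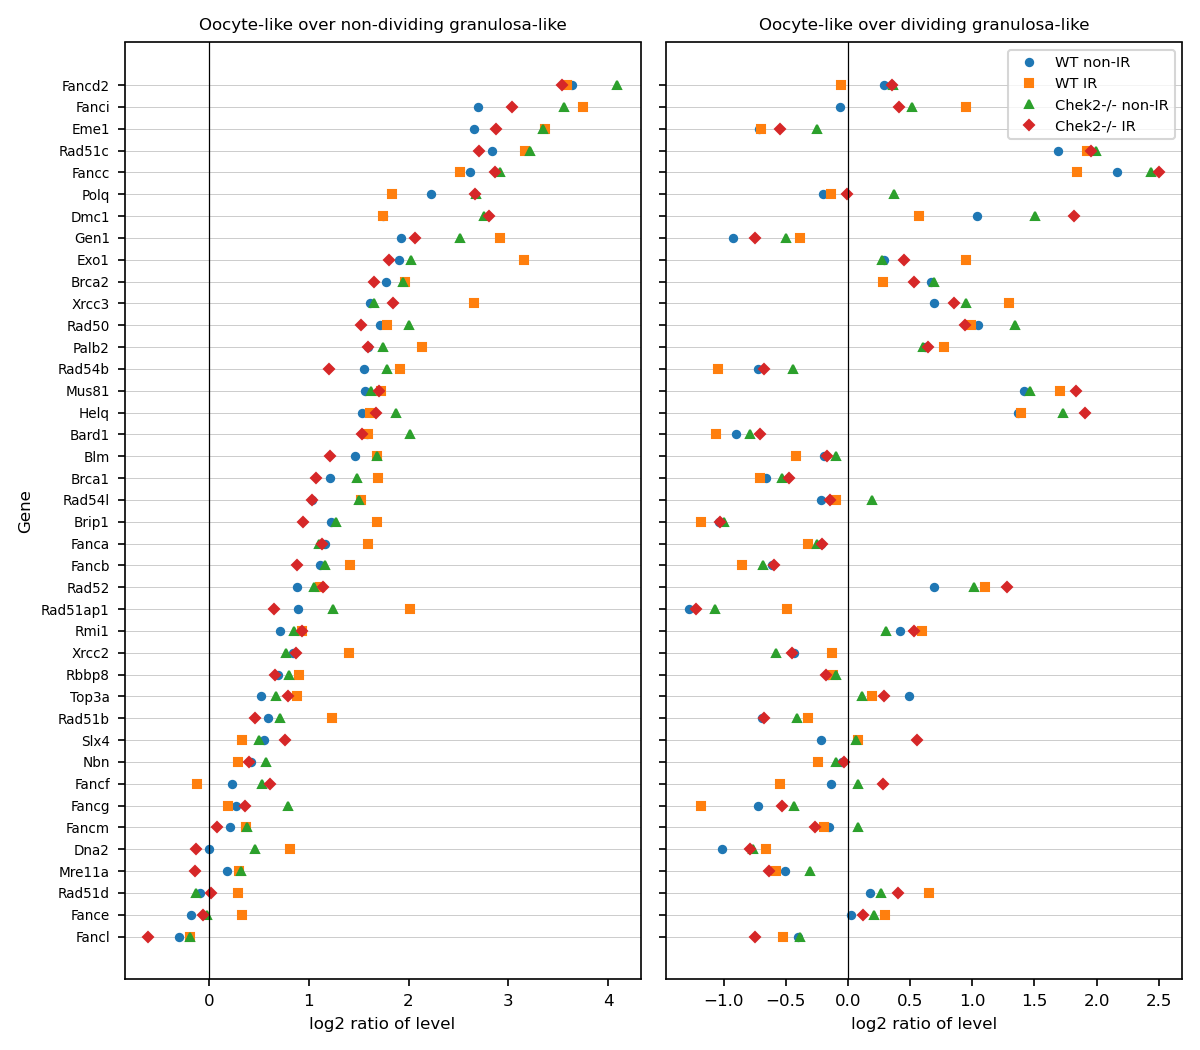
Log2 ratio of each gene's CPM in oocyte-like cells over non-dividing (left) and dividing (right) granulosa-like cells, with 1 marker per library. Fancc, Rad51c, Mus81 and Helq are to the right of 2-fold in both panels in all 4 libraries.

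Within the oocyte-like cells, 1 sub-cluster of 67 cells (37, 17, 4 and 9 in the wild-type nonIR, wild-type IR, Chek2-/- nonIR and Chek2-/- IR libraries) had the highest level of the growing-oocyte gene Bmp15, at 389 CPM against 2.82 to 35.1 CPM in the others. Its leading genes by fold were Obox5, Gm1965 and Fbxw20, and its median of 29216 UMIs per cell was below the 59732 to 300959 of the RNA-rich cells it was compared with. Another sub-cluster, among the cells it was compared with, had more of the growing-oocyte markers in sum (29622 against 23789 CPM). The summed level of the 40 genes in the Bmp15-high sub-cluster was 1461, 1427, 1355 and 1553 CPM in the same order of libraries, against 1069, 1044, 1230 and 1123 CPM in the other RNA-rich oocyte-like cells. The median ratio of the 40 genes was 1.18 to 1.52 over the libraries, while that of all genes was 0.872 to 0.896. Exo1 was at 160, 192, 129 and 188 CPM in the Bmp15-high sub-cluster and at 35.6, 58.1, 43.3 and 38.1 CPM in the other cells. Rmi1, which holds BLM and TOP3A together, had ratios of 3.26, 4.30, 2.15 and 3.95. Brca1 had ratios of 2.00 to 2.50 and Xrcc3 of 2.19 to 2.44. Other genes lay lower in the same cells: the MRN subunits Nbn (0.450 to 0.573) and Rad50 (0.726 to 0.791), and Fancc (0.468 to 0.802). The Chek2-/- values rest on few cells.

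In bulk ovaries irradiation was tested with edgeR's quasi-likelihood test and Benjamini-Hochberg adjustment over 26790 genes. In wild-type ovaries 0 of the 40 genes passed an adjusted p of 0.05 (2.41% of all genes did), also with DESeq2 and with limma-voom. Fitting only the 2 wild-type groups called 2 of the 40, Rad54l and Fancc, both lower (edgeR adjusted p = 0.0457 and 0.0408), beside 708 of all 24469 genes. At an unadjusted p below 0.05 there were 4 genes, all lower, beside 3059 of all genes. The log2 fold changes of the 40 genes ran from -0.31 to 0.14 with a median of -0.06, and 9 were above 0. Over all genes the median was -0.00409 with 13043 above 0. Over the 15956 genes at a mean of at least 1 CPM it was -0.0155 with 6984 above 0. The median of the 40 genes varied between libraries of a group with an SD of 0.0851, or 0.0491 for a difference of 2 groups. In Chek2-/- ovaries 0 of 40 passed (0.0112% of all genes) and 1 had an unadjusted p below 0.05, beside 1179 of all genes. There the median was 0.01 and 24 were above 0, beside 13372 of all genes, with a range from -0.30 to 0.20. The test of the difference between the genotypes' responses passed for 0 of 40 (1.03% of all genes), with 3 at an unadjusted p below 0.05, all in the direction of a lower response in wild type, beside 2449 of all genes. In bulk tissue, fewer cells of a type and less RNA per cell cannot be told apart.

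**Figure D4:**
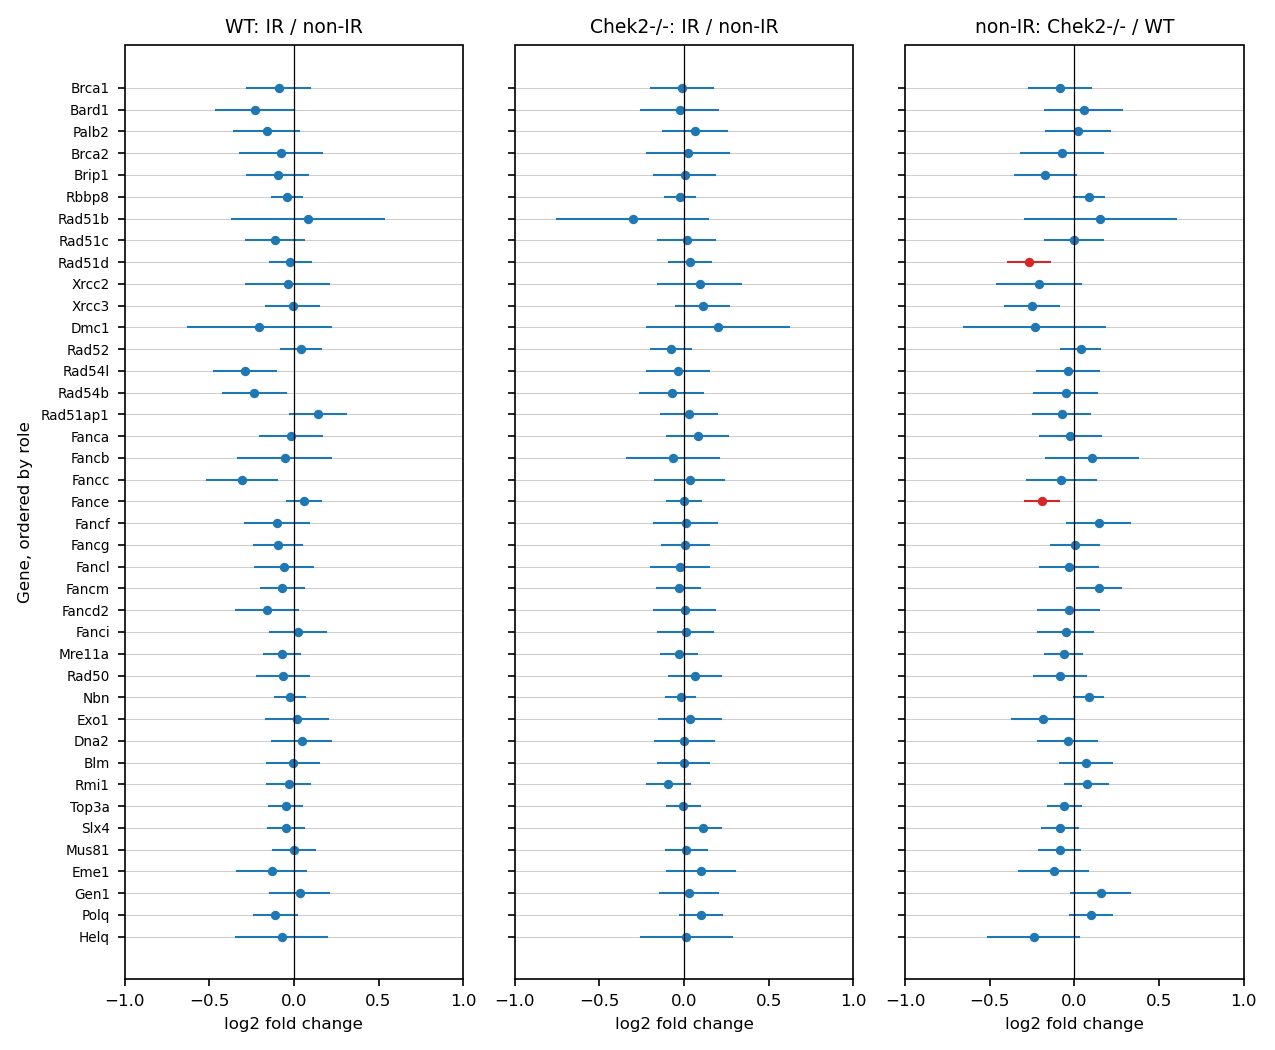
Log2 fold change of each of the 40 genes with its 95% limits for irradiation in wild-type ovaries, irradiation in Chek2-/- ovaries and Chek2-/- against wild-type nonIR ovaries; red marks an adjusted p of 0.05 or less. The only red points are Rad51d and Fance, both below 0 in the genotype comparison.

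Rad54l, a DNA motor that helps strand invasion, ranged from 19.1 to 23.5 CPM (median 20.4) in the wild-type nonIR libraries and from 15.0 to 18.8 CPM (median 17.1) in the wild-type IR libraries. The groups did not overlap, and the log2 fold change, with 6 libraries a group, was -0.29 ± 0.089 (SE). Its edgeR adjusted p was 0.105. In Chek2-/- libraries it ranged from 15.0 to 23.3 CPM (median 20.7) without and from 15.4 to 21.3 CPM (median 20.4) with irradiation, and the ranges overlapped almost wholly (log2 fold change -0.03 ± 0.089). The difference between the 2 responses was -0.25 ± 0.13 (edgeR adjusted p = 0.568). Its relative Rad54b was at 14.4 to 18.3 CPM (median 17.1) in wild-type nonIR and 12 to 15.7 CPM (median 14.5) in wild-type IR libraries, with overlap (log2 fold change -0.23 ± 0.091, edgeR adjusted p = 0.262).

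In the Fanconi group, Fancc was at 31.7 to 41.0 CPM (median 36.8) in wild-type nonIR and 26.9 to 34.0 CPM (median 28.4) in wild-type IR libraries, so that the ranges overlapped slightly. The change was -0.31 ± 0.10 on the log2 scale (edgeR adjusted p = 0.133). In Chek2-/- libraries the medians were 36.6 and 37.1 CPM, and the difference between responses was -0.34 ± 0.14 (edgeR adjusted p = 0.425). Fancd2 was at 24.2 to 29.2 CPM (median 26.6) and 23.0 to 25.8 CPM (median 23.9) in the wild-type groups, which overlapped (a change of -0.16 ± 0.089 in log2 units, edgeR adjusted p = 0.535). Of the 8 core genes 1 was above 0 after irradiation in wild type.

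In the BRCA group 0 of 6 were above 0 in wild type, with a median log2 fold change of -0.09. Bard1 was at 9.68 to 14.0 CPM (median 13.0) in wild-type nonIR and 8.12 to 11.5 CPM (median 10.9) in wild-type IR libraries, with overlap (log2 fold change -0.23 ± 0.11, edgeR adjusted p = 0.43). Palb2, the bridge between BRCA1 and BRCA2, was at 10.7 to 13.3 CPM (median 11.8) and 9.49 to 12.4 CPM (median 10.3), again with overlap, and the difference between responses was -0.22 ± 0.13 (edgeR adjusted p = 0.678).

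The later steps gave differences of the same small size. Slx4, the scaffold of the junction nucleases, was at 39.8 to 45.3 CPM (median 41.4) in Chek2-/- nonIR and 43.1 to 49.2 CPM (median 45.1) in Chek2-/- IR libraries, with overlap (log2 fold change 0.11 ± 0.051, edgeR adjusted p = 1), and the difference of wild type from this was -0.16 ± 0.072 (edgeR adjusted p = 0.487). Polq was at 15.4 to 19.6 CPM (median 18.8) in Chek2-/- nonIR and 18.7 to 20 CPM (median 19.6) in Chek2-/- IR libraries (log2 fold change 0.10 ± 0.060), and in wild type the medians were 17.0 and 15.7 CPM. Its difference between responses was -0.21 ± 0.086 (edgeR adjusted p = 0.42). The smallest p-values in Chek2-/- ovaries also named Rmi1 (-0.09 ± 0.062), Xrcc3 (0.11 ± 0.077) and Rad51b (-0.30 ± 0.22), each with an edgeR adjusted p of 1. Rad51b was the least counted of these, at 0.970 to 2.36 CPM in Chek2-/- libraries.

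**Figure D5:**
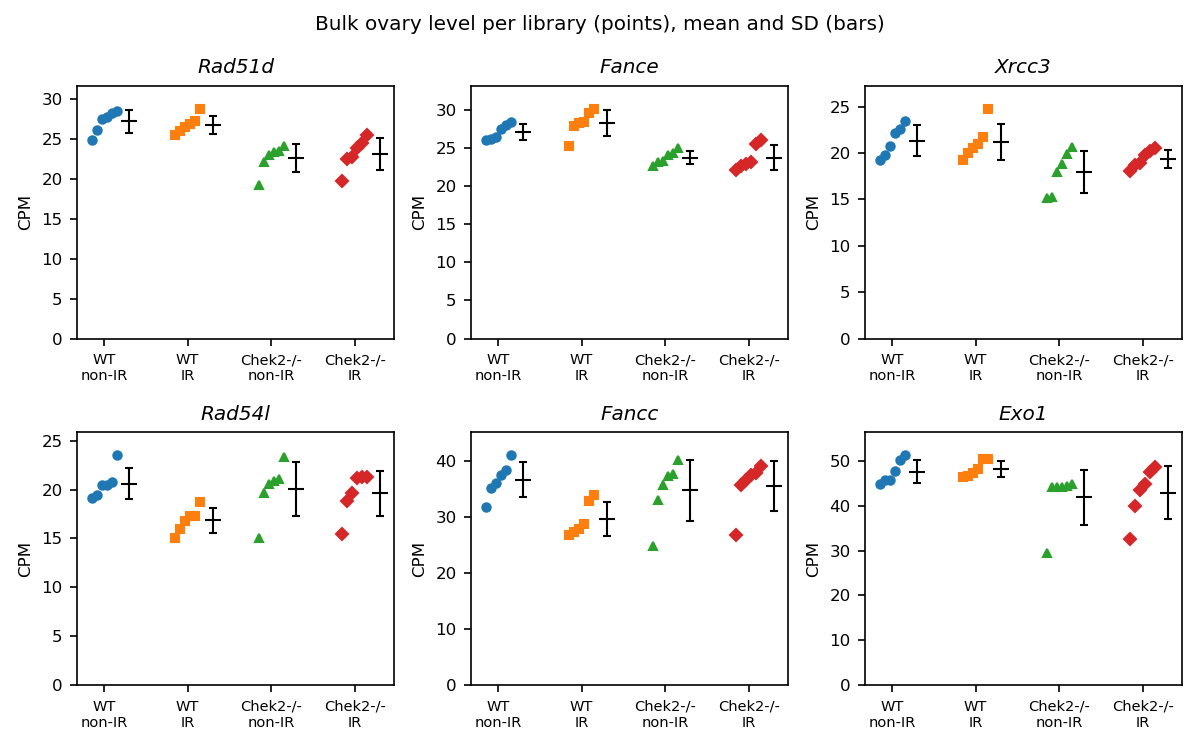
CPM in each of the 24 bulk libraries for Rad51d, Fance, Xrcc3, Rad54l, Fancc and Exo1, by group, with the mean and SD as bars. Rad51d and Fance do not overlap between wild-type and Chek2-/- nonIR libraries, and Rad54l does not overlap between wild-type nonIR and IR libraries.

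Marker lists were also followed in wild-type ovaries after irradiation, and only the primordial-oocyte and the oocyte marker lists had genes past the threshold. Of the 12 oocyte markers 1 was past it, lower, and 0 were above 0, with a median log2 fold change of -0.148. The summed markers of primordial oocytes ranged from 224 to 328 CPM in nonIR and 161 to 243 CPM in IR libraries, and 0 of 6 of these markers were above 0 (median log2 fold change -0.38), with Sohlh1 (-0.78, edgeR adjusted p = 0.000529) and Lhx8 (-0.46, edgeR adjusted p = 0.027) past the threshold. The S-phase markers had a median of -0.08 with 0 past it, and the G2/M markers one of 0.01. Macrophage markers were all above 0 (8 of 8, median 0.23) with 0 past it. In Chek2-/- ovaries the medians were 0.156 for macrophage (7 of 8 above 0), -0.035 for S-phase, 0.033 for G2/M and 0.082 for primordial-oocyte markers. Their part in the values of the 40 genes was not tested.

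In single-cell libraries 0 of the 40 genes changed 2-fold with irradiation in any of 5 classes of either genotype. In wild-type libraries that change was met by 14.7% of all genes in oocyte-like cells, 1.47% in dividing and 3.02% in non-dividing granulosa-like cells, and 1.32% in dividing and 2.35% in non-dividing fibroblast-like cells. In Chek2-/- libraries the shares in the same order were 3.26%, 1.04%, 1.15%, 1.27% and 1.35%. In wild-type oocyte-like cells 20 of 40 genes were above a ratio of 1, with a median of 1.01, beside 0.998 for all genes.

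The genes named next were chosen as the ends of the wild-type oocyte comparison, so a smaller ratio in Chek2-/- cells says nothing of a difference between the genotypes. Exo1 was at 47.4 CPM in nonIR and 82.1 CPM in IR wild-type oocyte-like cells, a ratio of 1.73 (95% counting limits 1.60 to 1.88), and the Chek2-/- ratio was 1.16 (1.05 to 1.28). Rad51ap1 was at 25.3 and 42.0 CPM in wild type (1.66, limits 1.48 to 1.86), with a Chek2-/- ratio of 0.833. Fanci had a ratio of 1.58 (1.37 to 1.83) in wild type and 1.07 in Chek2-/- cells. At the low end Brca2 was at 117 and 87.1 CPM in wild type (0.746, limits 0.697 to 0.798) and had a ratio of 0.946 in Chek2-/- cells, and Polq had 0.724 (0.540 to 0.962) and 0.845. Fancc had ratios of 0.772 and 1.00. In Chek2-/- oocyte-like cells the ends of the range were Fanca (1.26) and Fancl (0.803), which in wild type had ratios of 1.04 and 1.05. The make-up of the oocyte-like class differed between the libraries: 78 wild-type IR cells formed a sub-cluster of their own, in which Exo1 was at 60.6 and Rad51ap1 at 51.2 CPM. Exo1 was higher in the Bmp15-high sub-cluster (174 CPM) and in a sub-cluster of 38 cells, 0 of them wild-type IR (70.0 CPM). It was at 26.9 to 40.3 CPM in the rest. Rad51ap1 was higher in a low-RNA sub-cluster of 55 cells (62.1 CPM, 22 UMIs) and at 21.0 to 43.4 CPM in the rest. The median UMIs per oocyte-like cell were 181498 in the wild-type nonIR and 14183 in the wild-type IR library, and cells under 10000 UMIs were 30 of 196 and 80 of 171, holding 0.500% and 1.87% of the UMIs of the class. A further sub-cluster of 48 cells, 40 of them wild-type IR, held 5139 CPM of fibroblast markers, with Pdgfra and Col1a1 among its leading genes. The part of these in the ratios was not tested. The RNA-rich sub-clusters, without the Bmp15-high one and those of low RNA, still included that of the 78 wild-type IR cells. That sub-cluster held most of the wild-type IR cells among them and no wild-type nonIR cells. In these sub-clusters together, wild-type nonIR and IR cells were at 35.6 and 58.1 CPM for Exo1 and at 24.7 and 47.8 CPM for Rad51ap1. The wild-type values therefore do not compare nonIR and IR cells of the same sub-clusters. For Exo1, Chek2-/- nonIR and IR cells were at 43.3 and 38.1 CPM there, opposite in direction to the ratio of 1.16. The Bmp15-high sub-cluster, where Exo1 was highest, held 933550 of 11869792 oocyte-like UMIs in the Chek2-/- nonIR library and 2362866 of 17883918 in the IR one. In wild type it held 2731755 of 28927935 and 2450943 of 13377823. Its part in the ratios was not tested. Whether the 2 genotypes differ could not be tested with 1 library each.

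Non-dividing granulosa-like cells gave the broadest shift. In wild type the summed UMIs of the 40 genes had an IR to nonIR ratio of 0.836 (95% counting limits 0.822 to 0.851), 37 of 40 genes were below 1 and the median was 0.818, beside 0.987 for all genes. The 3 above 1 were Slx4 (1.28), Mus81 (1.17) and Rmi1 (1.02), and the lowest were Dna2 (0.644, limits 0.564 to 0.735), Brip1 (0.651) and Brca2 (0.653, limits 0.608 to 0.701). In Chek2-/- cells the summed ratio was 1.14 (1.12 to 1.16), 35 of 40 genes were above 1 and the median was 1.14, beside 1.00 for all genes, with Fanci (1.53), Bard1 (1.5) and Dna2 (1.4) highest. The make-up of the class moved the same way. Its largest cluster, led by Amh, went from 1244 to 1181 cells in wild type and from 1331 to 1611 in Chek2-/- libraries, and a further cluster with lower levels of the 40 genes went from 839 to 1386 and from 1032 to 752 cells. Within clusters the summed ratios in wild type were 0.902 in the largest cluster, 0.911 in the further one and 0.904 in the third, and in Chek2-/- cells 1.09, 1.04 and 1.03. The median ratios were 0.915, 0.985 and 0.863 in wild type and 1.09, 1.04 and 0.984 in Chek2-/- cells. The summed S-phase markers of the class were at 961 and 754 CPM (nonIR, then IR) in wild-type cells, and at 942 and 1178 CPM in Chek2-/- cells. The part of these in the shift was not tested.

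Chek2-/- nonIR ovaries were compared with wild-type nonIR ovaries to ask what the genotype changes before irradiation. In bulk 2 of the 40 genes passed an adjusted p of 0.05, both lower (5.34% of all genes passed), and 5 had an unadjusted p below 0.05, 1 higher and 4 lower, beside 5776 of all genes. The log2 fold changes ran from -0.27 to 0.15, with a median of -0.04 and 14 above 0, beside a median of 0.0104 and 13843 above 0 over all genes. The sign of the median rested on the Chek2-/- nonIR library numbered 6, without which it was 0.0144. The paralogs, taken with Dmc1, lay lowest, with a median of -0.22 and 1 of 6 above 0.

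Rad51d, the paralog that pairs with XRCC2, was at 25 to 28.6 CPM (median 27.7) in wild-type nonIR and 19.3 to 24.1 CPM (median 23.2) in Chek2-/- nonIR libraries. The groups did not overlap, and the difference over 6 libraries a group was -0.27 ± 0.059 on the log2 scale (edgeR adjusted p = 0.0118). Fance was at 26.0 to 28.4 CPM (median 26.9) and 22.6 to 24.9 CPM (median 23.6), again without overlap and with a log2 difference of -0.19 ± 0.050 (edgeR adjusted p = 0.0256). That call was lost when wild-type nonIR library 3 or 4 or Chek2-/- nonIR library 2 or 3 was left out (adjusted p = 0.0693, 0.0786, 0.0589 and 0.0579 in edgeR). Xrcc3, which pairs with the Rad51c product, was at 19.2 to 23.4 CPM (median 21.5) and 15.2 to 20.6 CPM (median 18.4), and the ranges overlapped (-0.25 ± 0.077, edgeR adjusted p = 0.0578). It did pass in some alternative fits, among them DESeq2, which called 2507 of all 26790 genes. In IR libraries the medians of Rad51d were 26.7 CPM in wild type and 23.3 CPM in Chek2-/- ovaries, and those of Fance 28.3 and 23.0 CPM.

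Exo1 was at 44.9 to 51.3 CPM in wild-type nonIR and 29.5 to 44.9 CPM in Chek2-/- nonIR libraries, the lowest being the library numbered 6 (log2 fold change -0.19 ± 0.089, edgeR adjusted p = 0.226, and -0.10 without that library). Fancm, the translocase that anchors the core complex on DNA, was at 22.9 to 26.7 CPM (median 25.6) and 25.4 to 31.0 CPM (median 27.8), with overlap, and was the 1 gene with an unadjusted p below 0.05 on the higher side (0.14 ± 0.062, edgeR adjusted p = 0.17). Without both Chek2-/- libraries numbered 6, a setting chosen after seeing the data, Rad51d and Fance passed and Gen1 also passed on the higher side (0.22, edgeR adjusted p = 0.0383, against 0.15 and 0.298 with them). In that fit 1877 of all 26480 genes passed.

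In the single-cell libraries Rad51d had Chek2-/- to wild-type nonIR ratios of 0.933 in oocyte-like, 0.878 in dividing granulosa-like and 1.09 in dividing fibroblast-like cells, and Fance of 1.04, 0.916 and 1.00. Ratios for the larger non-dividing granulosa-like (10499 cells) and fibroblast-like classes (14639 cells) are not given here. In oocyte-like cells (75 Chek2-/- and 196 wild-type cells) 39 of the 40 genes had a ratio above 1, with a median of 1.12 beside 1.01 for all genes. These cells were spread differently over the sub-clusters: one in which the 40 genes summed to 1272 CPM held 26 of the Chek2-/- and 20 of the wild-type cells, and the Bmp15-high one held 4 and 37. Their part in the ratios was not tested. Other marker lists differed in bulk: S-phase markers had a median log2 fold change of -0.11, with Cdt1 (-0.37, edgeR adjusted p = 0.0356), Uhrf1 (-0.25, edgeR adjusted p = 0.0453) and Gins2 (-0.19, edgeR adjusted p = 0.0252) past the threshold. The medians were -0.31 for granulosa, -0.42 for growing-oocyte, 0.27 for primordial-oocyte (6 of 6 above 0) and 2.32 for erythroid markers. Summed growing-oocyte markers were at 3475 CPM in Chek2-/- nonIR library 6 and 6044 to 7055 CPM in the others of that group. Summed erythroid markers were at 10445 CPM in 1 Chek2-/- nonIR library, with group medians of 462 CPM in wild type and 641 CPM in Chek2-/- nonIR ovaries. Their part in the Rad51d and Fance values was not tested.

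The other genes of the pathway followed as lists. Of 33 further homologous recombination and Fanconi genes tested in bulk, 0 passed in any of the 4 comparisons (2.41%, 0.0112%, 1.03% and 5.34% of all genes in the order given above). In single cells 7 of 32 genes of that list were at least 2-fold higher in all 4 libraries in dividing than in non-dividing granulosa-like cells (3.20% of all genes), and 13 of 33 in fibroblast-like cells (5.09%). Of 21 meiotic recombination genes, Tex11, which acts at crossovers, passed in wild-type irradiation (5.89 CPM median in nonIR, 3.95 CPM in IR, log2 fold change -0.60 ± 0.14, edgeR adjusted p = 0.0173) and in the genotype comparison (0.49 ± 0.14, edgeR adjusted p = 0.0388), and Iho1, which is needed to make meiotic breaks, passed in the latter (-0.61 ± 0.17, edgeR adjusted p = 0.0324). Against dividing granulosa-like cells 14 of 19 meiotic genes were at least 2-fold higher in oocyte-like cells in all 4 libraries, a pattern met by 24.2% of all genes compared.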

How the data were processed

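RNA of paired ovaries was sequenced in 24 bulk libraries (4 groups of 6, 1 female each), and 4 single-cell libraries each pooled 4 females. The deposited bulk values are estimated counts that the authors made with Trim Galore 0.6.5 and Salmon 1.3.0 (quality control with FastQC 0.11.9 and MultiQC 1.9, per the submitters' processing notes), not scaled between libraries. The deposited single-cell values are UMI counts per barcode that the authors made with bcl2fastq 2.20.0.422 and Cell Ranger. The processing notes name mm10.

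The estimated counts were rounded, and genes with at least 10 counts over all libraries (26790 of 44674) were fitted in edgeR 4.0.16 (R 4.3.3) with TMM scaling, the quasi-likelihood test over all 4 groups and Benjamini-Hochberg adjustment over all genes, called at 0.05. Fits in limma 3.58.1 (voom) and DESeq2 1.42.0 were alternatives. The fit was checked on counts simulated for wild-type irradiation. It recovered 21 of 62 genes changed 1.25-fold, 32 of 45 changed 1.5-fold and 38 of 41 changed 2-fold, and called 2 unchanged genes. Each replicate is the library of a separate female, and p-values measure the spread between them.

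Cells with at least 1000 genes, at most 20% mitochondrial and at most 50% ribosomal counts were kept, doublets called by Scrublet (389 to 566 per library) were removed, and clusters were made in scanpy 1.11.5 from 2000 variable genes that left out the 40 genes, other genes of the pathway and meiotic genes, with 30 components and resolution 0.5. A marker counted when 25% of the cells had it and it was 2-fold over the median cluster, and a class needed 60% of its list and 3 markers, limits set after the clusters were seen. UMIs were summed by class and library, genes with at least 30 UMIs over both classes were compared, and 95% intervals cover counting error only.

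The 40 genes and all lists were chosen with earlier results of these data known. Named were genes past the threshold, the 5 smallest p-values in each bulk comparison, and up to 6 largest and 3 smallest single-cell ratios. Further genes named among the dividing ratios, in the G2/M cluster, in the Bmp15-high sub-cluster and beside wild-type oocytes were chosen after their values were seen. Depth was 17825167 to 32605747 counts per bulk library. Alternatives covered the low-count filter, scaling, tool, groups fitted, a replicate block, each replicate left out, and for cells the resolution, doublets and gene minimum. A gene of the wider pathway list is not reported here.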

Additional observations from a re-analysis of the deposited data

Results flagged for a closer look

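Among 64 tests of a group's lowest or highest bulk library, 9 passed Dixon's 95% limit, and chance alone gives about 1 in 20. In 8 of the 9 the library was a Chek2-/- one numbered 6. In the nonIR group that library was at 9.34 CPM for Bard1 (the others 12.7 to 14.2), 29.5 CPM for Exo1 (44.1 to 44.9), 8.53 CPM for Palb2 (12 to 13.6) and 25.8 CPM for Rmi1 (28.6 to 29.7), and its summed level of the 40 genes was 863 CPM (1074 to 1125). In the IR group the library numbered 6 was at 9.59 CPM for Bard1 (12.8 to 13.8), 26.7 CPM for Fancc (35.8 to 39.1) and 917 CPM for the sum (1085 to 1122). The remaining one was Bard1 at 8.12 CPM in wild-type IR library 2 (10.5 to 11.5). In non-dividing granulosa-like cells the summed ratio of the 40 genes after irradiation was 0.836 in wild type and 1.14 in Chek2-/- libraries, opposite directions with 1 library per condition, and this difference was not tested.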

How the results depend on the processing

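With 1 library per condition the single-cell differences have no replicate check. In bulk, fitting only the groups compared called 2 genes in wild-type irradiation (Rad54l, adjusted p = 0.0457, and Fancc, adjusted p = 0.0408, edgeR) in place of 0, beside 708 of all 24469 genes. No other alternative called any there. In the genotype comparison, requiring a 2-fold change left 0 genes (211 of all 26790). Leaving out each replicate gave 1 to 3 genes called in the genotype comparison, beside 573 to 1794 of all genes, and 0 to 0 in the other 3. The medians were -0.0752 to -0.0395 for wild-type irradiation, -0.0253 to 0.0384 for Chek2-/- irradiation, -0.0963 to -0.0199 for their difference and -0.0685 to 0.0144 for the genotype comparison. Fance lost its call without wild-type nonIR library 3 or 4 or Chek2-/- nonIR library 2 or 3 (adjusted p = 0.0693, 0.0786, 0.0589 and 0.0579). Xrcc3 passed with filterByExpr (0.0469), DESeq2 (0.0182) and 4 of the left-out libraries. Same-numbered libraries correlated between -0.194 and 0.657 over all pairs of groups and between 0.0577 and 0.657 between the Chek2-/- groups, where 4 of 6 matched best with their own number; since some were under 0.1, the numbers were not taken to pair them; with the number as a replicate block 3 genes passed in the genotype comparison (Xrcc3 adjusted p = 0.0261; 2025 of all genes in place of 1430), and no other call among the 40 changed. Without both Chek2-/- libraries numbered 6, chosen after seeing the data, 3 genes passed there, beside 1877 of all 26480 genes, and the median of the 40 genes was 0.01. Among single-cell results, the count of genes at least 2-fold lower in oocyte-like than dividing granulosa-like cells was 3 at resolution 1, 1 with doublets kept and 1 with a minimum of 2000 genes, in place of 0. The mean of the median log2 ratios for fibroblast-like cells was 1.35 at resolution 1 and 1.5 with doublets kept, for granulosa-like cells 1.49 and for oocyte-like against dividing granulosa-like cells -0.28 at resolution 1. The classes compared also changed. At resolution 1, fibroblast-like and granulosa-like clusters of 1079 and 1735 cells, with 21 and 20 of 21 S-phase markers, counted as non-dividing. A granulosa-like G2/M cluster of 1314 cells stood apart from the dividing class. With doublets kept, a non-dividing granulosa-like cluster of 1354 cells had 8 of 9 fibroblast markers. These settings thus do not repeat the same comparison. Summed ratios moved to 0.980 (Chek2-/- over wild type, non-dividing granulosa-like, minimum of 2000 genes), 1.08 (Chek2-/- irradiation, non-dividing fibroblast-like, resolution 1), 0.995 (wild-type irradiation, dividing granulosa-like, resolution 1) and 0.859 (wild-type irradiation, non-dividing granulosa-like, doublets kept). The causes were not tested. Of the values recomputed, 234 that answer a comparison stayed and 16 moved. A count stayed if within 1.5-fold of the main one, and a bulk median if within the SD of 0.0851. Each main bulk median was smaller in size than that SD, so a change of sign could count as staying. For the bulk medians the tally is therefore no check. Single-cell medians stayed if within their SD over libraries, and summed ratios if within their counting limits. Of the fold changes of the genes named in bulk, 437 stayed, 9 crossed the adjusted threshold to pass and 4 to miss it, not counting the 2-fold requirement, which dropped Rad51d and Fance, or Gen1, which passed without the libraries numbered 6.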
